A study of Mus musculus with 54 samples.

Results

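The 10 genes described here are a selection from the WNT/β-catenin pathway of mouse embryonic stem cells. They include the co-receptor gene Lrp6, the β-catenin destruction complex genes Gsk3b and Apc, and the β-catenin gene Ctnnb1. The others are the TCF/LEF factor genes Tcf7l1, Tcf7 and Lef1, and the target genes Axin2, Sp5 and Cdx1. The open chromatin of all 10 was taken from 1 list of 113737 merged ATAC-seq peaks on mouse genome build GRCm38. In ATAC-seq, the transposase Tn5 inserts sequencing adapters into accessible DNA. A peak was assigned to a gene when its centre lay within 50 kb of any transcription start site (TSS) of that gene in GENCODE release M21, and 174 peaks met this rule. Of these, 15 were TSS peaks, centred within 1 kb of a TSS of the gene itself, 141 were distal peaks, centred more than 1 kb from every annotated TSS of any gene, and 18 lay at a TSS of another gene only. No peak was shared between 2 of the 10 genes. The whole series held 89794 distal peaks.

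The 54 samples in 24 groups came from ZHBTc4 mouse embryonic stem cells, in which doxycycline (dox) shuts down the endogenous Pou5f1 gene coding for OCT4. All samples carried lentiviral mCherry-OCT4-AID, an OCT4 fusion that the auxin indole-3-acetic acid (IAA) sends to degradation, the TIR1 protein that this degradation needs, and the cell cycle reporter YPet-MD. All were grown with dox in medium holding LIF, 3 μM of the GSK3 inhibitor CHIR99021 and 0.8 μM of the MEK inhibitor PD184352. CHIR99021 mimics WNT signalling downstream of the receptors, and no sample lacked it. A first set of 22 samples had 26 hr of dox, with 500 nM IAA for 2 hr or without it, and was sorted into the phases EG1, LG1, S and SG2. The washout set of 16 samples had 31 hr of dox, 2.5 hr with or without IAA and then 4.5 hr of washout before the same sort. The time course of 16 unsorted samples had 34 hr of dox and no IAA or IAA for 30 min or for 1, 2, 3, 4, 6 or 10 hr. The merged list pools these samples and gives only positions, so no value below belongs to a sample, there are no replicates, the depth is unknown, and treatments, phases and times were not compared. As a check of the cell type, TSS peaks were found at 8 of 8 embryonic stem cell markers, but also at 6 of 6 trophectoderm, 5 of 5 endoderm, 5 of 5 neural, 4 of 4 fibroblast and 2 of 4 blood markers, so a TSS peak does not tell these cell types apart. The median of distal peaks within 50 kb of the markers with a TSS peak was 9.5 for embryonic stem cells and 10.5 for trophectoderm, and it lay between 3 and 4.5 for the other 4 cell types.

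In the absence of WNT ligand, a destruction complex built on AXIN and APC holds β-catenin so that GSK3 phosphorylates it and it is degraded. WNT binding to Frizzled receptors and LRP6 halts this complex, and β-catenin then accumulates and joins TCF/LEF proteins at the DNA. In mouse embryonic stem cells TCF7L1 (also called TCF3) is the main repressor of the family, and chemical inhibition of GSK3 is widely used to support self-renewal. AXIN2 is a target that feeds back on the pathway by rebuilding the destruction complex.

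The DNA word bound by TCF/LEF proteins was searched as CTTTGAT or CTTTGAA on both strands, where it reads ATCAAAG or TTCAAAG on the opposite strand. The following stretches show the words found in the TSS peaks of 5 of the genes, and those of Apc and Cdx1 are described below without sequence. The Tcf7 and Tcf7l1 peaks and each of the Lrp6 peaks held 1 word. Axin2 and Sp5 each held 4 in the peak at their start, a number reached by 14 of the 19525 TSS peaks of protein-coding genes. Sequences are from GRCm38.p6, read 5′ to 3′ on the strand of the gene, which is the plus strand for Axin2 and Sp5 and the minus strand for Tcf7, Tcf7l1 and Lrp6. Capitals mark the words, and the number after each gene gives the middle of the word in bp from the nearest annotated TSS, with negative values upstream. Words inside the untranslated start of an exon are shown with 8 bases on either side.
Axin2 +81, chr11:108920419-108920441: cggctgcgCTTTGATaaggtcct
Axin2 -7, chr11:108920750-108920799: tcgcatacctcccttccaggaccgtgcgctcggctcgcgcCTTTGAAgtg
Axin2 -101 and -81, chr11:108921194-108921298: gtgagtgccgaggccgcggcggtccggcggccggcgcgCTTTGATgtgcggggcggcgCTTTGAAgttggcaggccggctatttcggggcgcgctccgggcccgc
Sp5 -101, chr2:70474779-70474865: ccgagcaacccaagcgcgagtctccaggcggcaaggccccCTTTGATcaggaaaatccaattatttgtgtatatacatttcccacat
Sp5 +53, chr2:70474965-70474987: tttgtggaTTCAAAGgatttgct
Sp5 +92, chr2:70475004-70475026: ccgctattCTTTGATgattgggt
Sp5 +117, chr2:70475029-70475051: cggcaaacTTCAAAGccataaat
Tcf7 -357, chr11:52283328-52283414: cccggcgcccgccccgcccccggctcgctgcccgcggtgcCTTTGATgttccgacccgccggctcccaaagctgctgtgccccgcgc
Tcf7l1 -479, chr6:72789690-72789757: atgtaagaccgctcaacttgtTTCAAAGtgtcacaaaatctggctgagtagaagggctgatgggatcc
Lrp6 -387, chr6:134567309-134567395: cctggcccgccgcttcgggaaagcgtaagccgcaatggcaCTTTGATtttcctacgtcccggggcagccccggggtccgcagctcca
Lrp6 +249, chr6:134471001-134471087: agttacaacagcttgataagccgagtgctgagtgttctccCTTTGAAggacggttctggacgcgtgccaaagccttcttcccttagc
The 3 words of Sp5 that lie downstream of its start all fall in its first exon, and the words of Axin2 at -101, -81 and -7 lie just upstream of internal TSSs, within introns of transcripts that begin farther upstream.

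Stretches of distal peaks are shown next for the genes in which no TSS peak held a word, taken from the nearest distal peak with one. A distal peak each of Axin2 and Sp5 was added after the values were seen. All are on the plus strand of GRCm38.p6, which is the strand of these genes, with capitals again marking the words.
Axin2 downstream, chr11:108961712-108961954: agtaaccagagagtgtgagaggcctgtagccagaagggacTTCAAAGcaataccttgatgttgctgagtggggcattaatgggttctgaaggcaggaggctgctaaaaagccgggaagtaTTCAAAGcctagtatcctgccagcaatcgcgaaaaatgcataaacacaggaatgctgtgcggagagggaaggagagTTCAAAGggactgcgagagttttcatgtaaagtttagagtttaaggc
Sp5 upstream, -2722, chr2:70472158-70472244: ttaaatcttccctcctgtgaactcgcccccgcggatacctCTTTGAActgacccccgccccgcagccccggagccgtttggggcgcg
Sp5 upstream, -2616, chr2:70472264-70472350: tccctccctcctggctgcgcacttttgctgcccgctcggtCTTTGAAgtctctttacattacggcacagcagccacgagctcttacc
Lef1 upstream, -4537, chr3:131105891-131105977: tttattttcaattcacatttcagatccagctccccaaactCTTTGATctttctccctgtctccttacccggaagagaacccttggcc
Lef1 upstream, -4365, chr3:131106063-131106149: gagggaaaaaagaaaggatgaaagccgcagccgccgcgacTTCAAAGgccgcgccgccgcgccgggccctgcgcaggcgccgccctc
Ctnnb1 downstream, chr9:120981618-120981780: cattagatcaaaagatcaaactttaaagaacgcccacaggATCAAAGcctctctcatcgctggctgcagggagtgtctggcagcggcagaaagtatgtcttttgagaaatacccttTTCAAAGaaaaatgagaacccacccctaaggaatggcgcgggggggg
Gsk3b intron, chr16:38197422-38197508: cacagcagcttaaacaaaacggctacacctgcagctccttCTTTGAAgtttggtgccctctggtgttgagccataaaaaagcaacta
The stretch downstream of Axin2 was intergenic and held 3 words in a 528 bp peak centred 18152 bp from the nearest Axin2 TSS. The Sp5 stretches came from 1 intergenic peak of 445 bp, and those of Lef1 from 1 intergenic peak of 1621 bp. The Ctnnb1 stretch lay in an intron of Ulk4, and that of Gsk3b in an intron of Gsk3b itself. A word in a peak is a description of its letters and not a bound site.

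All 10 genes had a TSS peak, against 70.8% of the 21938 protein-coding genes in the annotation. Each gene also had at least 7 distal peaks within 50 kb, a number reached by 38.0% of the 15535 protein-coding genes with a TSS peak, which serve as the background below. The median was 11.5 distal peaks per gene, beside 9.5 for the embryonic stem cell markers and 10.5 for the trophectoderm markers, and against 5 in the background, where the 10th and 90th percentiles were 1 and 12. The order ran from Tcf7l1 with 30 distal peaks through Lrp6 with 19, Axin2 with 18, Cdx1 with 14 and Gsk3b with 12 to Ctnnb1, Tcf7 and Lef1 with 11 each, Sp5 with 8 and Apc with 7. All 10 counts lay above the background median.

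**Figure D1:**
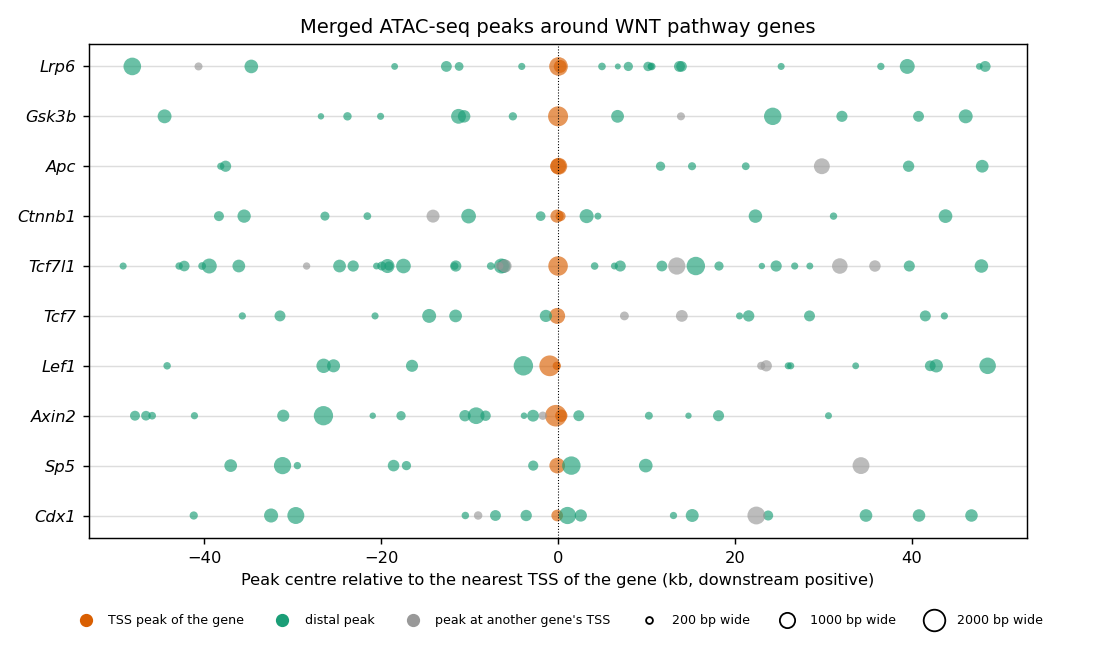
Each circle is a merged ATAC-seq peak at the distance of its centre from the nearest TSS of the gene (kb), with area proportional to width (bp) and colour by kind. Tcf7l1 has the densest row with 30 distal peaks and Apc the sparsest with 7.

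The searched sequence is longer for genes with TSSs far apart, so counts were also related to its length. The 10 genes were longer than the background (median 66.5 kb against 24.3 kb) and had more sequence within 50 kb of a TSS (median 127 kb against 107 kb). Fewer other protein-coding genes had a TSS in that sequence (median 1 against 2), and the counts were not adjusted for this. Per 100 kb searched, the median was 10.0 distal peaks against 4.42 in the background, and 9 of 10 genes lay above the background median. The medians of the marker sets on this scale were 8.84 for embryonic stem cells and 10.5 for trophectoderm, the latter above the 10 genes. Of the 10 genes, Axin2 came first with 14.6, followed by Cdx1 with 14 and Tcf7l1 with 12.4, while Gsk3b fell to 5.48 and Apc to 3.88. When only the first base of each gene was used as its TSS, Axin2 had 18 distal peaks, not all of them the same peaks, and Tcf7l1 had 15, and at least as many were found for 0.286% and 1.83% of 14322 background genes. Under that choice Lrp6 had 11, Apc had 5 and Gsk3b had 4, the last below the background median of 5.

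**Figure D2:**
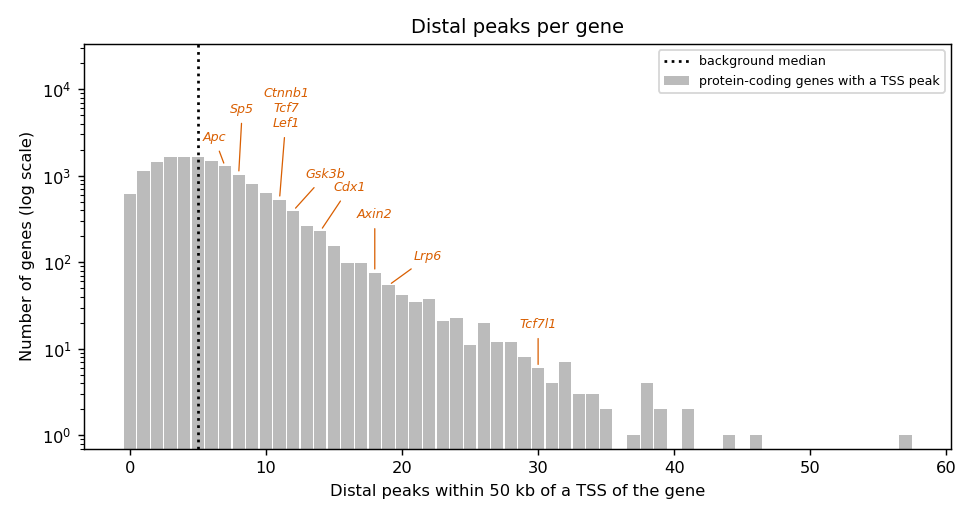
The bars give the number of protein-coding genes with a TSS peak (log scale) by their number of distal peaks within 50 kb, and the dotted line marks their median of 5. All 10 WNT pathway genes lie to the right of that line, with Tcf7l1 at 30.

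Among upstream members, Lrp6, the gene of the WNT co-receptor (chr6:134446476-134566965, minus strand), had 2 TSS peaks and 19 distal peaks. The 1494 bp peak at its start was centred 65 bp from a TSS, and a 714 bp peak lay at an internal TSS 95927 bp downstream of the gene start. At least 19 distal peaks were found for 2.01% of background genes, but per 100 kb searched 9.44% had as many, and 10.3% did when only the first base of each gene was used. They were mostly narrow, with a median of 332 bp and a range from 153 bp to 1333 bp. The nearest lay 4089 bp upstream of an internal TSS, the farthest 48288 bp downstream in an intron of Bcl2l14, and the widest 48109 bp upstream in an intron of Mansc1. That widest peak was the only distal peak of Lrp6 with a TCF/LEF word, and the farthest held an octamer.

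Gsk3b, the kinase that phosphorylates β-catenin and the target of CHIR99021 (chr16:38089001-38246084, plus strand), had a single TSS peak of 1717 bp centred 15 bp from its start. At least as wide a peak was found for 13% of background genes. Of its 12 distal peaks 9 lay inside the gene, the nearest 5095 bp upstream of an internal TSS and the widest, of 1305 bp, 24276 bp downstream of one. The farthest lay at 46087 bp in an intron of Nr1i2. TCF/LEF words were found in the widest peak and in the intronic peak shown above, and an octamer in a 706 bp intronic peak 6739 bp downstream of an internal TSS.

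Apc, the scaffold of the destruction complex and a tumour suppressor, lies on chromosome 18 and had the fewest distal peaks. Its 2 TSS peaks measured 1230 bp at the gene start and 1075 bp at an internal TSS 26802 bp downstream. Both words found at Apc lay in the internal one, 427 bp and 491 bp downstream of that TSS. Its 7 distal peaks had a median width of 370 bp, and none held a TCF/LEF word, a composite or an octamer. The nearest was 11597 bp from a TSS, whereas the nearest distal peak lay within 5 kb of a TSS for 8 of the 10 genes. The farthest, 47952 bp downstream in an intron of Reep5, was also the widest at 700 bp.

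Ctnnb1, which encodes β-catenin (chr9:120929216-120960507, plus strand), was the only one of the 10 genes whose annotated first base lay in no peak. Its 2 TSS peaks, of 743 bp and 432 bp, were centred 4080 bp and 4901 bp inside the gene, in an intron of transcripts that begin farther upstream and beside TSSs of others. A peak of at least 743 bp was found for 88.1% of background genes, although the GC content of the Ctnnb1 peak was the second highest of the 10 at 70.4%. The nearest of its 11 distal peaks was a 401 bp peak 1950 bp upstream of the first base. The widest, of 926 bp, lay 10097 bp upstream, and the farthest 43805 bp downstream in an intron of Ulk4. A single distal peak, the one shown above, held TCF/LEF words.

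Among the TCF/LEF factor genes the number of distal peaks ran from 11 to 30. Tcf7l1, the repressor (chr6:72626378-72789254, minus strand), had a TSS peak of 1642 bp, a width reached by 16.2% of background genes. It had 30 distal peaks, and 0.238% of background genes had at least as many. Of these 19 lay inside the gene, 8 upstream and 3 downstream, and 24 had Tcf7l1 as the nearest protein-coding TSS. The nearest lay 4147 bp downstream of an internal TSS and the farthest 49143 bp upstream of the gene. Its widest distal peak, of 1461 bp, was intronic and held 1 of the 4 TCF/LEF words in its distal peaks. The others lay in intronic peaks of 920 bp, 202 bp and 786 bp, the first of which also held an octamer. A further 6 peaks lay at TSSs of other genes, 4 of them within introns of Tcf7l1.

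Tcf7, which encodes TCF1 (chr11:52252371-52283014, minus strand), had a 1090 bp TSS peak and 11 distal peaks. The nearest, 640 bp wide and 1363 bp upstream, held 1 TCF/LEF word, and peaks 31415 bp upstream and 41525 bp downstream held 2 each. The widest, of 836 bp, was 14555 bp upstream, and the farthest lay 43675 bp downstream in an intron of Skp1a. An intronic peak of 515 bp held an octamer.

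Lef1 (chr3:131110471-131224356, plus strand) had a narrow peak of 300 bp at the gene start and a wide one of 1852 bp centred 1399 bp inside the gene. A TSS peak at least as wide as the latter was found for 8.75% of background genes. The wide peak was centred 927 bp from the nearest Lef1 TSS and 220 bp from that of the antisense gene Gm43352. With a proximal distance of 500 bp it is not a TSS peak of Lef1. Neither of the 2 peaks held a TCF/LEF word. All 11 of its distal peaks had Lef1 as the nearest protein-coding gene, 5 upstream and 6 inside. The nearest, 3907 bp upstream, was the widest distal peak of all 10 genes at 1621 bp and held the 2 words shown above. A 733 bp peak 25362 bp upstream held 2 words and an intronic peak of 497 bp held 1. The farthest was 48566 bp from a TSS and measured 1170 bp.

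Among the target genes, Axin2 and Sp5 held many TCF/LEF words and Cdx1 fewer. Axin2, a feedback inhibitor and the standard reporter of the pathway (chr11:108920349-108950783, plus strand), had the widest TSS peak of the 10 at 2004 bp, a width reached by 5.59% of background genes. A further TSS peak of 655 bp lay 23652 bp inside the gene. At least 18 distal peaks were found for 2.50% of background genes, and per 100 kb searched 0.708% had as many. All 18 distal peaks had Axin2 as their nearest protein-coding gene, and 11 of them lay upstream. The nearest was 2354 bp from a TSS and the farthest 47804 bp upstream. Of the 18, 7 held 11 TCF/LEF words in all, more than any other of the 10 genes. The nearest 3 of these lay 2812 bp and 3833 bp upstream of an internal TSS and 9245 bp upstream of the gene, and the widest distal peak, of 1600 bp and 26505 bp upstream, held 3 words.

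Sp5, a transcription factor gene induced by WNT signals (chr2:70474923-70477729, plus strand), is the shortest of the 10 genes at 2.81 kb and has a single annotated TSS. The 1051 bp peak there held 3.81 TCF/LEF words per kb. All 8 distal peaks had Sp5 as the nearest protein-coding gene, and their median width was 637 bp. The nearest was also the widest at 1459 bp, centred 1518 bp from the TSS in an exon, with 1 word. The 2 other word-bearing peaks lay 2794 bp and 31127 bp upstream with 2 words each, the latter 1276 bp wide. The farthest lay 36987 bp upstream.

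Cdx1, a homeobox gene of the posterior embryo, lies on chromosome 18 and has 1 annotated TSS. Its TSS peak was the narrowest of the 10 at 583 bp, and 92.7% of background genes had one at least as wide. That peak nevertheless held 2 TCF/LEF words, at 126 bp and 95 bp upstream of the start. Cdx1 had 14 distal peaks with the largest median width of the 10 genes, 658.5 bp. The nearest and widest, of 1274 bp, was intronic and centred 1080 bp from the TSS, with 2 words. A 1238 bp peak 29625 bp upstream, in an exon of Pdgfrb, held 1. Of the 14, 3 had Cdx1 as the nearest protein-coding gene and most of the others had Slc6a7 or Pdgfrb. The farthest was 46740 bp downstream.

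Peak widths at the TSS ran from 583 bp at Cdx1 to 2004 bp at Axin2 when the widest was taken for each gene. This width had a median of 1362 bp against 1219 bp, and it exceeded 1 kb in 8 of 10 genes against 73.0% of the background. With a proximal distance of 500 bp the median fell to 1160 bp, below the background median of 1208 bp, so no direction can be read from it. Base composition of the same peaks differed more from the background. The median GC content was 67.1% against 59.4%, with 9 of 10 genes above the background median, and the ratio of observed to expected CpG was 0.841 against 0.695, with 10 of 10 above.

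The 141 distal peaks had a median width of 505 bp, against 415 bp for the 51618 distal peaks near background genes. Of the 141, 11 exceeded 1 kb, against 7.67% in the background. Their GC content was 49.5% against 48.9% at the median, and the share of their bases masked as repeats was 11.3% against 11.6%. By distance, 29 lay within 10 kb of a TSS of the gene, 51 between 10 and 25 kb and 61 beyond 25 kb. Relative to the gene, 56 were upstream, 58 inside and 27 downstream. Of those inside, 54 were intronic and 4 exonic. For 107 of the 141 the nearest protein-coding TSS was that of the WNT pathway gene. Counting only such peaks, the median was 9.5 per gene against 2 in the background. Background genes had more protein-coding neighbours (median 2 against 1), and the share over their distal peaks was not taken.

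**Figure D3:**
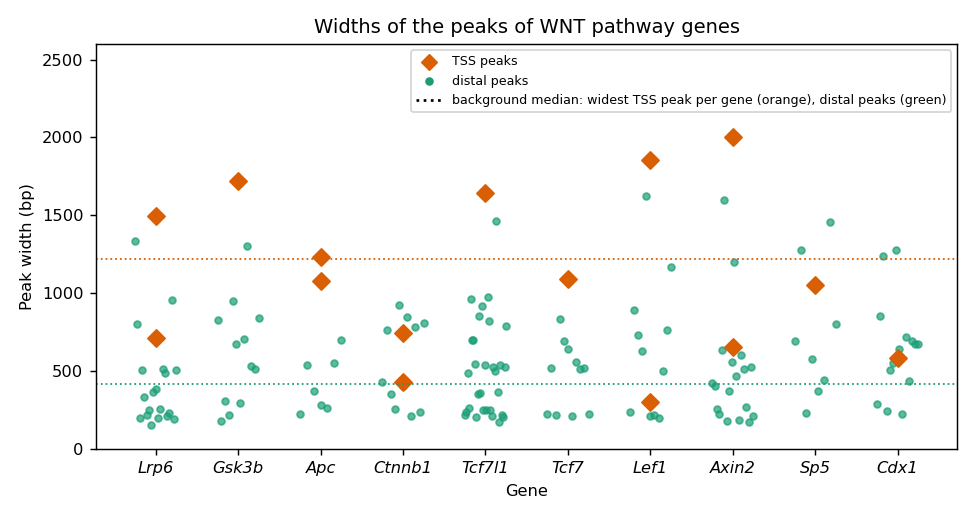
Widths (bp) of TSS peaks (diamonds) and distal peaks (points, ordered by position) for each gene, with dotted lines at the background medians of the widest TSS peak per gene (1219 bp) and of distal peaks (415 bp). All 15 TSS peaks are drawn, so only the widest of each gene compares with the upper line. The TSS peaks run from 300 bp at Lef1 to 2004 bp at Axin2, and most distal peaks lie below 1 kb.

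TCF/LEF words were found in a larger share of the TSS peaks of the 10 genes than of the background, and in about the same share of their distal peaks. Of the 15 TSS peaks 8 held a word (53.3%, Wilson 95% confidence interval 30.1% to 75.2%), against 20.7% of the 19525 TSS peaks of protein-coding genes and 21.7% at the widths of these 15. At least 2 words were found in 4 of the 15, against 3.01%, and at least 4 in 2, against 0.0717%, neither of them taken at matched widths. By gene, 7 of 10 had a word in a TSS peak against 26.6% of the background genes. The interval covers counting error only and treats peaks as separate draws, although 5 of the genes had 2 TSS peaks. The genes without a word in a TSS peak were Ctnnb1, Lef1 and Gsk3b. The words did not all lie centrally, and within the central 200 bp the shares were 20% in the TSS peaks of the 10 genes and 3.36% in the background.

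**Figure D4:**
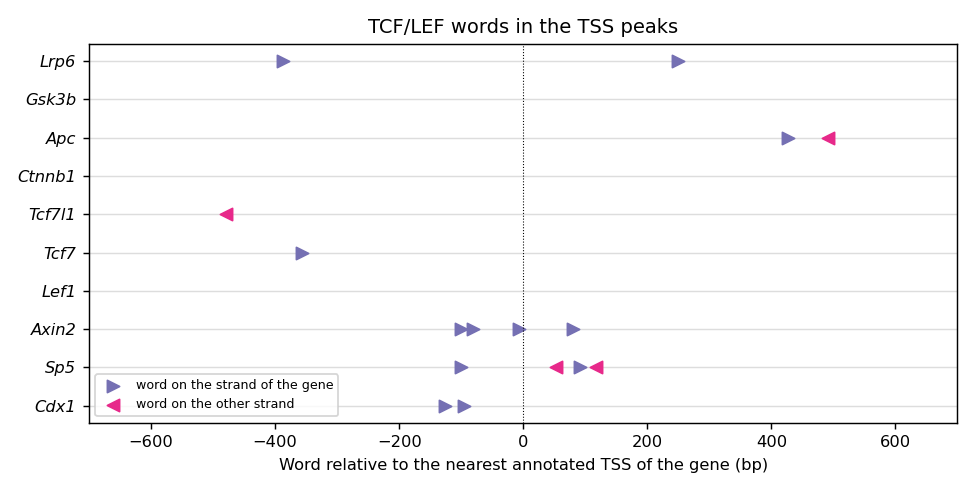
Positions of TCF/LEF words in the TSS peaks, in bp from the nearest annotated TSS of the gene, with triangles pointing right for words on the strand of the gene. Axin2 and Sp5 hold 4 words each within 117 bp of a TSS, and Ctnnb1, Lef1 and Gsk3b hold none.

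In distal peaks the share was 18.4% (26 of 141, interval 12.9% to 25.6%), against 18.6% of all distal peaks of the series and 20.2% at the widths of these 141. At least 2 words were found in 10 of 141 against 2.96%, and at least 3 in 2, both near Axin2, against 0.454%. For these counts no share at matched widths was taken, although the 141 peaks were wider at the median than distal peaks near background genes. The RefSeq promoter table, with 250 bases before and 50 after each start in the same genome, had entries for 7 of the genes and none for Apc, Cdx1 and Lrp6. Of its 12 promoters of these genes that of Sp5 alone held a word (8.33%), against 8.65% of all promoters. In this window the share was not above the background, unlike in the TSS peaks, although a count of 1 is small.

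Among words of the pluripotency factors, the octamer and close matches to the OCT4::SOX2 composite were rare in these peaks and in the background. The OCT4 octamer ATTTGCAT was found in 4 of 141 distal peaks (2.84%), 1 each near Lrp6, Gsk3b, Tcf7l1 and Tcf7, against 3.05% of all distal peaks. It was in 0 of the 15 TSS peaks, which allows a share of up to 20% (3 of 15), against 2.96% of the TSS peaks of protein-coding genes. The composite OCT4::SOX2 motif was matched to 1 fixed string of 15 letters with up to 2 mismatches. It was in 0 of 141 distal peaks, which allows up to 2.13% (3 of 141), against 0.263% in the series. The octamer and composite counts are too small to tell the 10 genes from the background in either direction. The paper searched the composite with the motif tool HOMER and found it at many more loci, so these shares do not measure how common the motif is. The SOX word CCATTGT or CCTTTGT was searched on both strands. It was in 15.6% of the distal peaks (interval 10.5% to 22.5%), against 21.7% of all distal peaks and 23.6% at the widths of the 141. In the TSS peaks it was in 20% against 22.1%. CCTTTGT overlaps CTTTGTT, a TCF/LEF variant that was counted only as an alternative.

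The rest of the pathway was read from a list of 95 other WNT genes, of which 94 matched the annotation and 90 had a TSS peak. The 4 without were the ligand gene Wnt8b, the receptor gene Fzd8, the secreted inhibitor gene Dkk4 and Apc2, a relative of Apc. The 90 genes had a median of 7 distal peaks, ranging from 0 to 17, and 54 lay above the background median of 5. Their median per 100 kb searched was 5.70, against 10.0 for the 10 genes and 4.42 in the background. By this measure Klf5 with 13.9, Wnt10b with 13.8, Wnt7b with 13 and Ror2 with 12.7, named after their values were seen, lay above the 12.4 of Tcf7l1 and the 9.41 of Lrp6.

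By role, nuclear factors had a median of 9 distal peaks, and Ctbp2 with 17 and Tcf7l2 with 16 led them. The order of the roles depended on the searched length, since per 100 kb the median was 6.55 for ligands, 6.23 for targets and 5.85 for nuclear factors. CTBP2 is a co-repressor, and TCF7L2 is the TCF/LEF member outside the 10 genes. Target genes had a median of 8, led by Klf5 with 14 and by Nr5a2 and Sp8 with 12 each. Ligands and their processing genes had a median of 7.5, led by Wnt5b and Wnt7b with 15 each. Receptors had a median of 6, led by Lgr5, a receptor for R-spondins, with 15 and Ror2 with 14, but per 100 kb their median was 4.37, just below the 4.42 of the background. Inhibitors also had a median of 6 (5.17 per 100 kb), led by Frzb with 12 and Rnf43, which removes Frizzled from the cell surface, with 11. Cytoplasmic transducers stood lowest with 2.5, or 2.13 per 100 kb, although the kinase gene Csnk1e had 16, and Apc2 had 12 without a TSS peak.

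**Figure D5:**
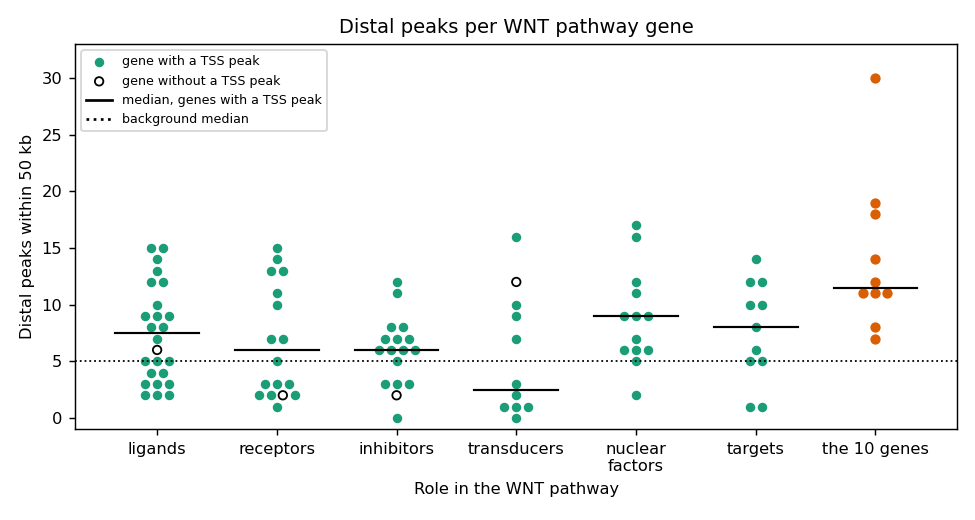
Distal peaks within 50 kb for each of the other WNT genes by role and for the 10 genes, with lines at the medians of genes with a TSS peak and a dotted line at the background median of 5. Transducers lie lowest with a median of 2.5, and the 10 genes run from 7 to 30.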

How the data were processed

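ATAC-seq was performed in 54 samples, and 1 table was used. The deposited table gives positions (chromosome, start and end) of merged regions in bp on GRCm38, and no read count, score or signal. As described by the authors, reads were aligned with STAR (2.6.1c in the submitters' processing notes), peaks were called with MACS2 (2.1.1.20160309) and merged with bedtools. A merged list keeps a region called in any library, so its size and widths grow with depth and number of libraries. The list still held 11 regions over 5 kb, none near the 10 genes.

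Positions are 1-based. The annotation was GENCODE M21 and the sequence GRCm38.p6, whose chromosome lengths held all peaks. A peak centre within 1 kb of a TSS was called proximal. The background was 15535 protein-coding genes with a TSS peak, the 10 genes included. Words were counted as exact matches on both strands, except that the OCT4::SOX2 composite could have up to 2 mismatches. The share expected at the members' widths was taken from background peaks in classes of width. No test was run, because no value belongs to a sample, and genes and peaks are not replicates. The genes and lists were chosen with earlier results of these data known. For each gene the TSS peaks, the nearest, farthest and widest distal peak and those with words (the nearest 3 where over 5 held any) are named, and of other WNT genes in each role those with most distal peaks and those without a TSS peak. The distal stretches of Axin2 and Sp5 were chosen after their values were seen. Scripts, checked on simulated data, used Python 3.11.15, pandas 2.3.3, numpy 2.4.6, scipy 1.17.1, pysam 0.24.0 and matplotlib 3.10.9. Distances, peak widths, annotated starts and words were varied where they bear on a value. Each gene was left out in turn for the medians of the 10 genes and, added after the data were seen, for the shares with a word.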

Additional observations from a re-analysis of the deposited data

How the results depend on the processing

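All 10 genes kept a TSS peak under 6 of 7 alternatives, and 9 did when only the first base of each gene was used. The median of distal peaks per gene stayed above the background median in all 11 alternatives. It was 4.5 against 2 with a searched distance of 20 kb and 20 against 10 with 100 kb, and it ranged from 11 to 12 when each gene was left out. The median of the other WNT genes was 3 against 2 with 20 kb and 11 against 10 with 100 kb. The median width of TSS peaks ranged from 1230 bp to 1494 bp when each gene was left out, and it was 1160 bp with a proximal distance of 500 bp, below the background median of 1208 bp. The share of distal peaks with a TCF/LEF word was 31.9% with the core CTTTGA (background 30.7%), 31.2% when CTTTGTT and CTTTGTA were also allowed (35.4%) and 8.51% in the central 200 bp (8.60%). The share of TSS peaks with a word stayed above the background in all 5 alternatives, with 20% in the central 200 bp (3.36%). When each gene was left out, chosen after seeing the data, it ranged from 46.2% to 61.5%, and the share of distal peaks from 15.4% to 20.5%. Gsk3b had 4 distal peaks, below the background median, with TSSs of basic transcripts and with the first base only. Apc had 4 with TSSs of basic transcripts and 8 with a searched distance of 100 kb, where the background median was 10. The alternatives change which peaks are counted, and the cause of these shifts was not tested further. With positions only, depth and variation between libraries cannot be assessed. No paired analysis was possible because the table gives no value per sample.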

Other observations

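The 14 TSS peaks with at least 4 TCF/LEF words, singled out after the values were seen, lay nearest to the protein-coding genes 4930452B06Rik, Axin2, Bcar3, Dach1, Epp13, Gm10719, Gm5148, Mall, Pcdh19, Sp5, Tmsb4x, Trps1, Usp47 and Zyg11a. The Sp5 peak had the highest density among them, 3.81 words per kb, followed by Epp13 with 3.28 and 4930452B06Rik with 2.75, while Axin2 had 2.00. The Gm10719 region was 38206 bp wide and had 0.236 words per kb. With the 6-letter core CTTTGA, 93 TSS peaks held at least 4 matches, and Axin2 and Sp5 remained the only 2 of the 15 peaks of the WNT pathway genes to do so.

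The 18 peaks at TSSs of other genes near the 10 WNT pathway genes were grouped by the type of their nearest TSS. The nearest TSS belonged to an antisense transcript for 6, to a protein-coding gene for 5, to a lincRNA for 3, to an unclassified transcript for 3 and to a snoRNA for 1. The peak of this kind near Sp5 had an antisense transcript nearest but also lay 286 bp from the protein-coding gene Erich2. No share over such peaks near background genes was taken.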
